A study of Mus musculus with 17 samples.

Results

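The 8 genes Lyve1, F13a1, Cd163, Pf4, Cbr2, Ms4a7, Mrc1 and Stab1 were followed as markers of border-associated macrophages through 17 RNA-seq libraries of sorted mouse brain cells. They were taken by name from a marker list for these macrophages, matched from Ensembl identifiers to symbols, and they are 8 of the 41388 genes counted. The choice was made with earlier results of these data known. All 8 were among the 13060 genes that reached 1 read per 1000000 counted reads (1 CPM) in at least 3 libraries, and all 8 also reached it without the neonatal CD11c+ libraries. The study asked how microglia of the developing brain compare with those of healthy adults and of mice with experimental autoimmune encephalomyelitis (EAE), an inflammatory disease model induced by immunisation with a myelin peptide. Cells were sorted from perfused brains of C57BL/6 mice as CD45dim CD11b+ and then by CD11c, an integrin chain encoded by Itgax, and the cells of several mice were pooled for each library. Neonates of both sexes in the first postnatal week gave 4 CD11c+ libraries (numbered 13 to 16) and 4 CD11c- libraries (17 to 20). Female mice with symptomatic EAE, which had also received mycobacteria and pertussis toxin, gave 3 CD11c+ libraries (1 to 3) and 3 CD11c- libraries (4 to 6), and unmanipulated adults gave 3 (21 to 23). The adult libraries bear a CD11c-negative population label, whereas their titles call them total microglia. Age, sex and immunisation differed together between the neonatal and the EAE groups and cannot be told apart there.

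Border-associated macrophages are the resident macrophages of the meninges, the perivascular spaces and the choroid plexus. They share an early embryonic origin and many surface molecules with parenchymal microglia, but in the adult they are told apart from them by scavenger and endocytic receptors such as CD163, CD206 (encoded by Mrc1) and LYVE1. They also express CD45 and CD11b, the antigens used to gate microglia, usually with more CD45 at the surface. Lyve1 encodes a hyaluronan receptor also made by lymphatic endothelium, Mrc1 the macrophage mannose receptor, Cd163 the haemoglobin-haptoglobin scavenger receptor and Stab1 a scavenger receptor for modified lipoproteins. F13a1 encodes the A subunit of coagulation factor XIII, a transglutaminase that cross-links fibrin, and Pf4 a chemokine known best from platelet granules. Cbr2 encodes a carbonyl reductase and Ms4a7 a membrane-spanning protein of the MS4A family.

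The genes lie on 8 different chromosomes, so they share no neighbourhood. In GRCm38, with GENCODE gene models, Lyve1 (ENSMUSG00000030787) spans chr7:110850607-110863239, F13a1 (ENSMUSG00000039109) chr13:36867178-37050244, Cd163 (ENSMUSG00000008845) chr6:124304656-124330527 and Pf4 (ENSMUSG00000029373) chr5:90772435-90773383. Cbr2 (ENSMUSG00000025150) spans chr11:120729489-120732114, Ms4a7 (ENSMUSG00000024672) chr19:11321039-11336146, Mrc1 (ENSMUSG00000026712) chr2:14229392-14332057 and Stab1 (ENSMUSG00000042286) chr14:31139013-31168641. All are protein-coding. F13a1 overlaps 2 antisense transcripts, Stab1 overlaps Nt5dc2 on the other strand and Mrc1 contains Mir511, and since the strand setting of the counting is not given in the sources used here, reads of overlapping genes on opposite strands may not have been told apart.

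Within the neonatal CD11c+ group, 6 of the genes moved together strongly, while Mrc1 shared their order of libraries but varied less. Mrc1 was also high in both neonatal subsets. The promoters were therefore compared as RefSeq places them in GRCm38.p6. A window of 250 bases before to 50 bases after the transcription start was matched for 7 of the 8 genes, all but Lyve1, in 9 windows. The upstream 250 bases of Cd163 (chr6:124304401-124304650, + strand) and of Pf4 (chr5:90772185-90772434, + strand), both from the set that moved together, and of Mrc1 (chr2:14229164-14229413, + strand) follow, 5′ to 3′, with any match to the searched letters in capitals.
Cd163: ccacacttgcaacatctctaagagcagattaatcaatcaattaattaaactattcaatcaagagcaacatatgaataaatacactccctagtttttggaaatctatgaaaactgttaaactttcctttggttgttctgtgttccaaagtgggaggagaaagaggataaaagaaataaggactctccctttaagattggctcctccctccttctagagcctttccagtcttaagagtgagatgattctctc
Pf4: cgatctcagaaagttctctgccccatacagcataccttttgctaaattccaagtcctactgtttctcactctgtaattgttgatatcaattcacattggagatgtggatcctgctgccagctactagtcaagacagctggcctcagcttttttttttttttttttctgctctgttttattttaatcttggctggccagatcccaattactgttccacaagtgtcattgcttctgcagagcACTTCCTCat
Mrc1: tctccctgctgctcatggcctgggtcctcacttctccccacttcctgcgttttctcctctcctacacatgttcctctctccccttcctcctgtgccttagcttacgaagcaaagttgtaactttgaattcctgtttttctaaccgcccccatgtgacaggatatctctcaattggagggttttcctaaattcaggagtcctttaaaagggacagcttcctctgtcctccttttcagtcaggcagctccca
The letters searched on both strands were GAGGAAGT for PU.1, the lineage factor of macrophages, TGCTGAC for MAF, TGANTCA for AP-1, CACGTG for an E-box and CACCC for a KLF site. The MAF letters followed by TCA also spells an AP-1 site, so these 2 can overlap. The capitals in Pf4 are the PU.1 letters on the reverse strand. The PU.1 letters were in 2 of the 9 full windows (Pf4 and the second F13a1 window) against 3.2% of the 32851 mouse windows, the MAF letters in 1 (Cbr2) against 4.67%, the AP-1 letters in 1 (Ms4a7) against 7.81%, the E-box in 0 against 7.15% and the KLF letters in 4 against 57.5%. F13a1 and Ms4a7 had 2 windows each. Lyve1 had none, so the set that moved together could be searched only in part. No searched motif was found in every gene of the rest of that set, and the windows of Cd163 and Mrc1 held none of the motifs.

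The libraries held 5115489 to 10436066 reads counted in genes. Levels are given as CPM after scaling the libraries by TMM factors, and 3 reads, taken as the floor, were worth 0.287 to 0.57 CPM. Itgax was 285 to 428 CPM in neonatal CD11c+ libraries against 8.3 to 11.6 CPM in their CD11c- counterparts, 325 to 453 against 57 to 80.8 CPM in the EAE subsets, and 30.6 to 31.9 CPM in adult libraries, so the sort was seen in the RNA. A list of 12 microglial genes, among them P2ry12 and Tmem119, summed to 15620 to 31140 CPM over all libraries. Mitochondrial genes took 5.1% of reads in neonatal CD11c- library 17 and 2.23% in EAE CD11c+ library 1, against 0.588 to 1.56% elsewhere. A list of 15 immediate early genes summed to 27140 CPM in neonatal CD11c+ library 16 against 2508 to 3088 CPM in libraries 13 to 15, and to 50140 CPM in adult library 21 against 23440 and 26400 CPM in the other adult libraries. In these bulk samples, fewer cells of a type and less RNA per cell cannot be told apart.

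The neonatal CD11c+ cells held the most RNA of all 8 genes, and 7 of the 8 were called higher than in neonatal CD11c- cells. The call required an adjusted p of at most 0.01 (edgeR quasi-likelihood test, Benjamini-Hochberg over all genes tested) and an at least 2-fold difference. The share of all tested genes called higher in this comparison was 3.02%, and 0.712% were called lower. Lyve1 was 446, 283, 156 and 147 CPM in libraries 13 to 16 and 33.6, 15.1, 18.6 and 22.5 CPM in libraries 17 to 20. The lowest CD11c+ library thus stood above the highest CD11c- library, and Lyve1 was 3.52 ± 0.35 (SE) higher on the log2 scale (adjusted p = 2.5e-06). F13a1, with 621, 407, 169 and 182 CPM against 24.3, 15.5, 24.3 and 16.9 CPM, had the largest fold of the 8 (log2 4.07 ± 0.38, adjusted p = 1.2e-06). Its group means were 345 ± 214 CPM (SD, n = 4) and 20.3 ± 4.71 CPM (n = 4).

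The scavenger receptor Cd163 was 253, 183, 93.5 and 89.8 CPM in CD11c+ libraries 13 to 16 and 23, 11.2, 12 and 9.67 CPM in CD11c- libraries 17 to 20 (log2 difference 3.46 ± 0.39, adjusted p = 7.3e-06). Pf4 was 134, 81, 48 and 63.6 CPM against 4.37, 4.92, 11.5 and 9.11 CPM (log2 difference 3.38 ± 0.36, adjusted p = 4.7e-06). Neither gene overlapped between the subsets. Of the platelet genes that accompany Pf4 in blood, Ppbp was at 0.126 to 0.976 CPM in the CD11c+ libraries and at 0 in all 4 CD11c- libraries, and Gp9 was 4.86 to 6.42 CPM in the former against 3.61 to 8.55 CPM in the latter. Cbr2 and Ms4a7, the lowest of the 8 per length of exon in CD11c+ cells, behaved alike. Cbr2 was 51.3, 28.5, 16.5 and 17.9 CPM against 4.18, 2.92, 2.77 and 3.9 CPM (log2 difference 2.99 ± 0.38, adjusted p = 3.1e-05), and Ms4a7 was 58.1, 27.6, 19.5 and 22.5 CPM against 3.99, 4, 6.22 and 3.16 CPM (log2 difference 2.78 ± 0.34, adjusted p = 1.8e-05). These low values rest on few reads, 19 to 24 for Cbr2 and 17 to 54 for Ms4a7 in the CD11c- libraries.

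Stab1 and Mrc1 were abundant in both neonatal subsets and separated them less. Stab1 was 4465, 4160, 3772 and 3138 CPM in libraries 13 to 16 and 1075, 2024, 1781 and 1782 CPM in libraries 17 to 20. The groups did not overlap, and Stab1 was called, with a log2 difference of 1.22 ± 0.17 (adjusted p = 8.7e-05). Mrc1 was 1831, 1470, 1087 and 959 CPM in the CD11c+ libraries and 1225, 848, 902 and 888 CPM in the CD11c- libraries. Here the subsets did overlap, CD11c- library 17 standing above CD11c+ libraries 15 and 16. The log2 difference of 0.47 ± 0.21 did not pass the quasi-likelihood test (adjusted p = 0.13, unadjusted p = 0.035). The mean of Mrc1 was 1337 ± 395 CPM against 966 ± 175 CPM (n = 4 each), a ratio of 1.38, while the ratio of means was 17 for F13a1, 11.5 for Lyve1, 11.1 for Cd163 and 7.35 for Ms4a7. The 7 called genes were called in this comparison also when any library of the 2 groups was left out.

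**Figure D1:**
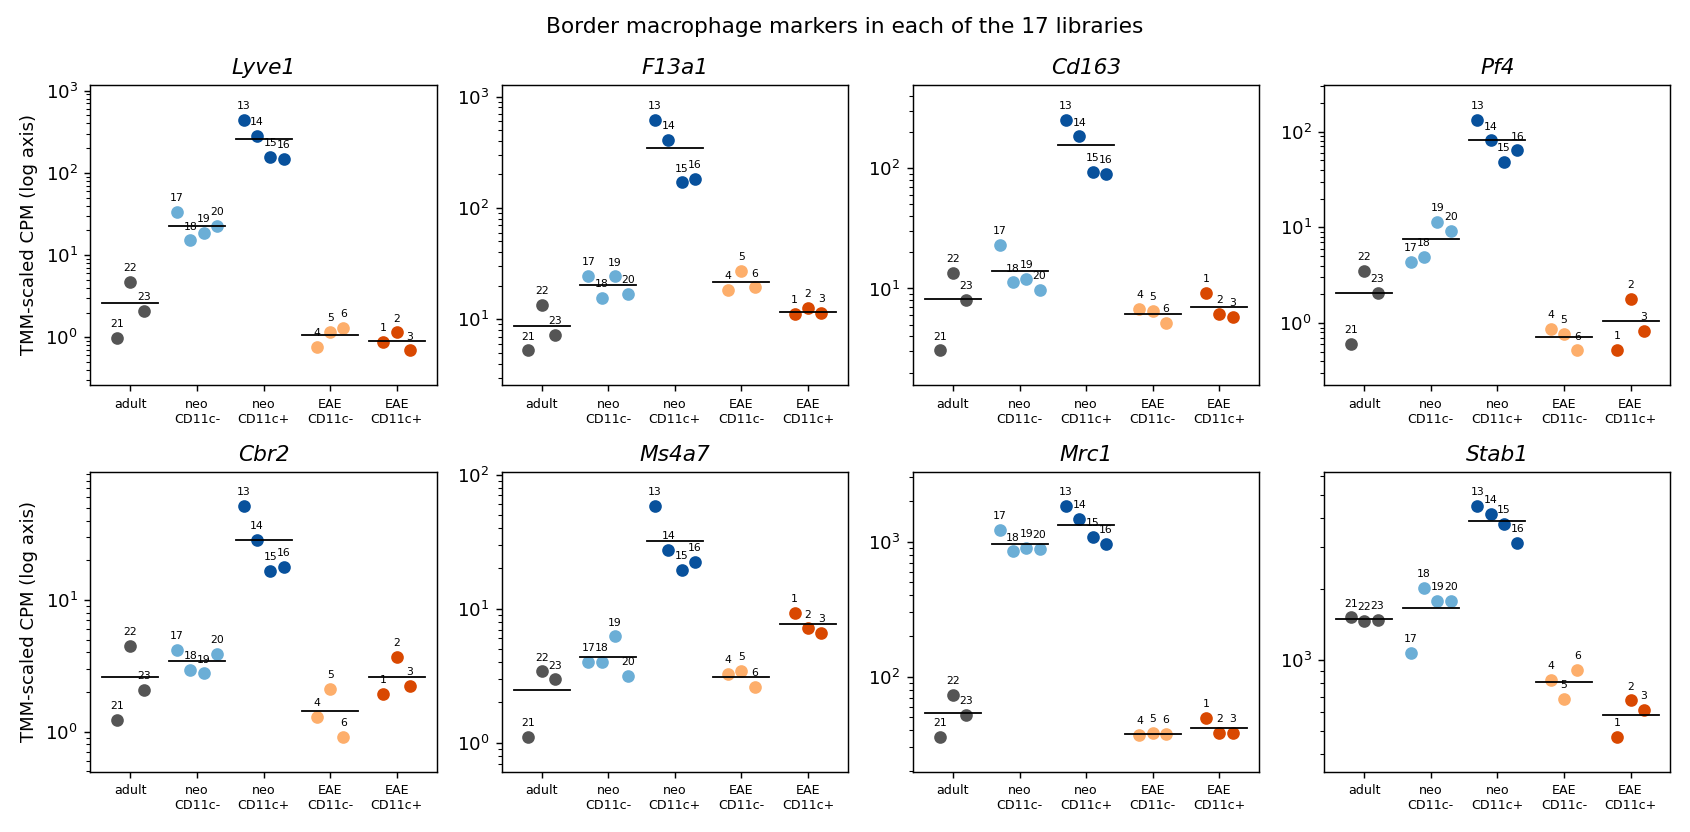
TMM-scaled CPM (log axis) of each gene in each of the 17 libraries, grouped by cell population; points are libraries labelled with their numbers and black lines are group means. Lyve1, F13a1, Cd163, Pf4, Cbr2 and Ms4a7 stand apart in the 4 neonatal CD11c+ libraries, Mrc1 is between 848 and 1831 CPM in all 8 neonatal libraries, and Stab1 is at 472 CPM or more in every library.

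Other cell types were followed with marker lists. Between the neonatal subsets, 9 neutrophil genes summed to 9.51 to 12 CPM in CD11c+ libraries against 289.6 to 1641 CPM in CD11c- libraries, 9 monocyte genes to 29.3 to 48.1 and 24.6 to 129.6 CPM, and 7 dendritic cell genes to 30.7 to 37.1 and 23.8 to 42.6 CPM. The 10 meningeal fibroblast and mural genes summed to 5.12 to 9.62 and 2.09 to 8.76 CPM, and the 7 endothelial genes to 12 to 21.4 and 14.5 to 20 CPM. The 6 choroid plexus genes, mostly Ttr, summed to 114 to 299.6 and 70.7 to 194 CPM, 12 neuronal and glial genes to 82.6 to 156 and 78.3 to 93.8 CPM, and the 12 microglial genes to 17960 to 21010 and 21280 to 27740 CPM. The neutrophil and microglial sums did not overlap. The monocyte sums did, but 5 of the 9 monocyte genes were called lower and 2 higher in CD11c+ cells. The shares of all genes were 0.712% and 3.02%. The part of these lists in the differences of the 8 genes was not tested.

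The level of the markers also differed within the neonatal CD11c+ group, and it did so in step. For 6 of the 8 genes the highest library exceeded the lowest by over 2.5-fold, namely F13a1 (3.67-fold), Cbr2 (3.11), Lyve1 (3.02), Ms4a7 (2.98), Cd163 (2.81) and Pf4 (2.79). This ratio was 1.91 for Mrc1 and 1.42 for Stab1, and its median was 1.2 over the 8674 genes of at least 10 CPM in this group. Of those genes, 162 (1.87%) reached 2.5-fold. All 8 members were highest in library 13, second in library 14 and lower in libraries 15 and 16. The same order was seen in 915 of the 8674 genes (10.5%), and in 35 of them (0.404%) together with a ratio of at least 2.5. Since the members were chosen with earlier results of these data known, these shares are a description and no test of the shared order. Within the lower pair the members did not agree, Lyve1, Cd163, Mrc1 and Stab1 being lowest in library 16 and F13a1, Pf4, Cbr2 and Ms4a7 in library 15.

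Set against the mean of libraries 15 and 16, library 13 held 3.54 times as much F13a1, 2.98 times as much Cbr2, 2.94 times as much Lyve1, 2.77 times as much Ms4a7, 2.76 times as much Cd163 and 2.4 times as much Pf4. The ratio was 1.79 for Mrc1 and 1.29 for Stab1. In absolute terms, however, Mrc1 and Stab1 changed more, by 809 and 1010 CPM, than Lyve1 (294 CPM) or F13a1 (446 CPM). Library 14 also stood above libraries 15 and 16 for every member, but much of the spread rested on library 13. Without it the ratio of highest to lowest was 2.41 for F13a1, 2.04 for Cd163 and 1.92 for Lyve1, against a median of 1.16 for all genes. It was 1.73 for Cbr2, 1.69 for Pf4 and 1.41 for Ms4a7, below or near the 1.53 of Mrc1. None of these genes then reached 2.5-fold. With 4 libraries no correlation was computed, and no p-value is attached to the shared order.

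The proportions among the 6 genes varied less than their levels. Per Lyve1 read, libraries 13 to 16 held 0.567 to 0.646 reads of Cd163, 0.1 to 0.121 of Cbr2, 0.0974 to 0.152 of Ms4a7, 0.286 to 0.432 of Pf4 and 1.09 to 1.44 of F13a1. The proportion of Mrc1 to Lyve1 ran from 4.11 in library 13 to 6.97 in library 15 and that of Stab1 from 10 in library 13 to 24.2 in library 15. In the neonatal CD11c- libraries, Cd163, at 0.43 to 0.745 reads per Lyve1 read, covered the range seen in CD11c+ cells, and so did Pf4, at 0.13 to 0.621. F13a1, at 0.723 to 1.31, and Ms4a7, at 0.119 to 0.335, overlapped their CD11c+ ranges in part. Cbr2, at 0.124 to 0.194, lay just above its range. Mrc1, at 36.4 to 56.3 reads per Lyve1 read, and Stab1, at 32 to 134, lay wholly above theirs.

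**Figure D2:**
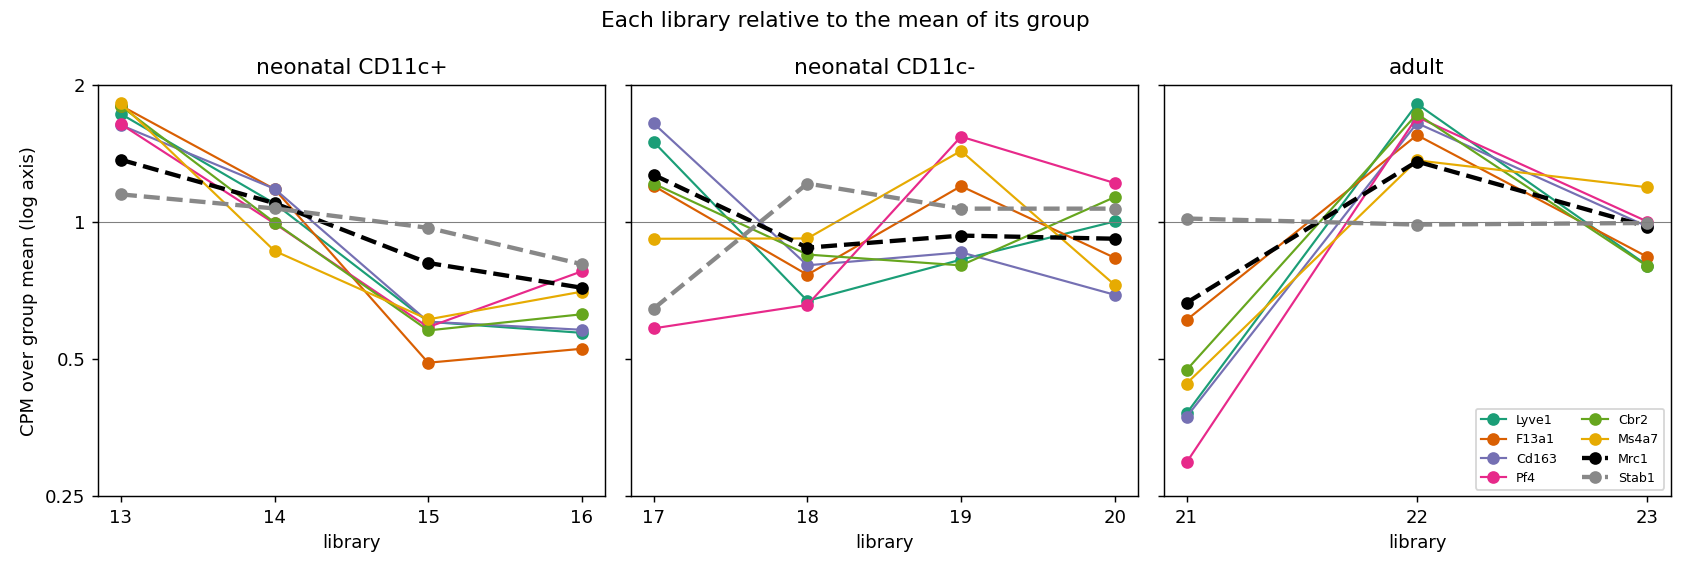
CPM of each gene over the mean of its group (log axis) by library, in the neonatal CD11c+, neonatal CD11c- and adult groups; lines join the libraries of a gene for reading only, and Mrc1 and Stab1 are dashed. In the CD11c+ panel all 8 genes are highest in library 13 and below the group mean in libraries 15 and 16, and in the adult panel 7 genes are lowest in library 21 and highest in library 22.

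Several other values moved along libraries 13 to 16. Counted reads fell in the same order, from 9294738 through 9217948 and 7944789 to 6373937. The sum of 12 neuronal and glial genes was 156, 129, 111 and 82.6 CPM, and that of 9 monocyte genes 45.5, 48.1, 33.5 and 29.3 CPM. The choroid plexus sum was 299.6, 207, 266 and 114 CPM and the meningeal fibroblast and mural sum 9.62, 5.12, 7.3 and 6.18 CPM. The part of these values in the shared order of the markers was not tested. The immediate early genes stood out in library 16 alone, and Itgax was 313, 390, 428 and 285 CPM, in another order than the markers.

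In the neonatal CD11c- group the 8 genes did not share 1 order. Lyve1, Cd163, Mrc1, Cbr2 and F13a1 were highest in library 17, F13a1 by a margin within counting error (24.32 against 24.31 CPM in library 19), whereas Pf4 and Ms4a7 were highest in library 19 and Stab1 in library 18. Pf4 and Stab1 were lowest in library 17. That library had the large mitochondrial share, and the part of this in the marker levels was not tested. In the adult group the members did move together, at far lower levels. All except Stab1 were lowest in library 21 and highest in library 22. Cd163 was 3.06, 13.5 and 8.01 CPM in libraries 21 to 23, Lyve1 was 0.979, 4.68 and 2.07 CPM, F13a1 was 5.26, 13.4 and 7.23 CPM, and Mrc1 was 35.6, 72.7 and 52.3 CPM. The ratio of library 22 to 21 was 5.74 for Pf4, 4.78 for Lyve1, 4.42 for Cd163, 3.65 for Cbr2, 3.09 for Ms4a7, 2.55 for F13a1 and 2.04 for Mrc1, and 0.97 for Stab1. Several of these ratios rest on few reads in library 21, with 5 for Pf4, 8 for Lyve1, 9 for Ms4a7 and 10 for Cbr2, against 25 for Cd163, 43 for F13a1 and 291 for Mrc1. Library 21 was also the adult library rich in immediate early transcripts, and the part of this in the low marker levels was not tested.

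Per length, the order of the genes differed between populations. In adult libraries Stab1 was at 144 CPM per kilobase of exon and the next gene, Mrc1, at 8.41, while the other 6 were between 0.56 (Ms4a7) and 2.86 (Pf4). In neonatal CD11c- libraries Stab1 (162) and Mrc1 (152) were at a like level per kilobase, above Pf4 (10.37), Lyve1 (7.69) and the others (0.975 to 3.01). In neonatal CD11c+ libraries the order was Stab1 (378), Mrc1 (210), Pf4 (113), Lyve1 (88.4), F13a1 (51.2), Cd163 (28.4), Cbr2 (21.5) and Ms4a7 (7.17). Neighbours such as Pf4 and Lyve1, or Cd163 and Cbr2, lay within the spread of the libraries.

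The comparison with adults divided the members in a second way. In neonatal CD11c- cells 3 of the 8 genes were called higher than in adult cells, against 7.11% of all genes called higher and 5.99% called lower. Mrc1 was by far the clearest, at 848 to 1225 CPM against 35.6 to 72.7 CPM (means 966 and 53.6 CPM, log2 difference 4.16 ± 0.27, adjusted p = 1.5e-09). Lyve1 was called as well, at 15.1 to 33.6 CPM against 0.979 to 4.68 CPM (log2 difference 2.95 ± 0.46, adjusted p = 6.9e-05). Pf4 was called at a log2 difference of 1.74 ± 0.47 (adjusted p = 0.0071), but it missed the threshold when adult library 21 or 23 or CD11c- library 19 or 20 was left out, with adjusted p between 0.016 and 0.042. F13a1 (log2 1.2 ± 0.42, adjusted p = 0.032), Cd163 (0.72 ± 0.44, 0.21), Ms4a7 (0.76 ± 0.41, 0.15), Cbr2 (0.33 ± 0.45, 0.61) and Stab1 (0.16 ± 0.18, 0.52) did not pass. F13a1 did pass with DESeq2 (adjusted p = 0.0059), edgeR's likelihood ratio test (0.0074), no filter on low counts (0.0022) and a threshold of 0.05. As ratios of group means, CD11c- neonates thus held 18 times the adult level of Mrc1 and 8.71 times that of Lyve1, but 1.12 times that of Stab1.

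In neonatal CD11c+ cells all 8 genes were called higher than in adult cells, against 11.2% of all genes called higher and 7.10% lower. The log2 difference was 6.48 ± 0.49 for Lyve1, 5.27 ± 0.46 for F13a1, 5.12 ± 0.46 for Pf4, 4.63 ± 0.27 for Mrc1, 4.19 ± 0.45 for Cd163, 3.55 ± 0.39 for Ms4a7, 3.32 ± 0.42 for Cbr2 and 1.39 ± 0.19 for Stab1. The largest of the 8 adjusted p-values was 1.1e-05, for Stab1. The comparisons of the 2 neonatal subsets with adults share the adult libraries. Stab1, which adult microglia express at 1468 to 1513 CPM, had the smallest fold of the 8 here.

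**Figure D3:**
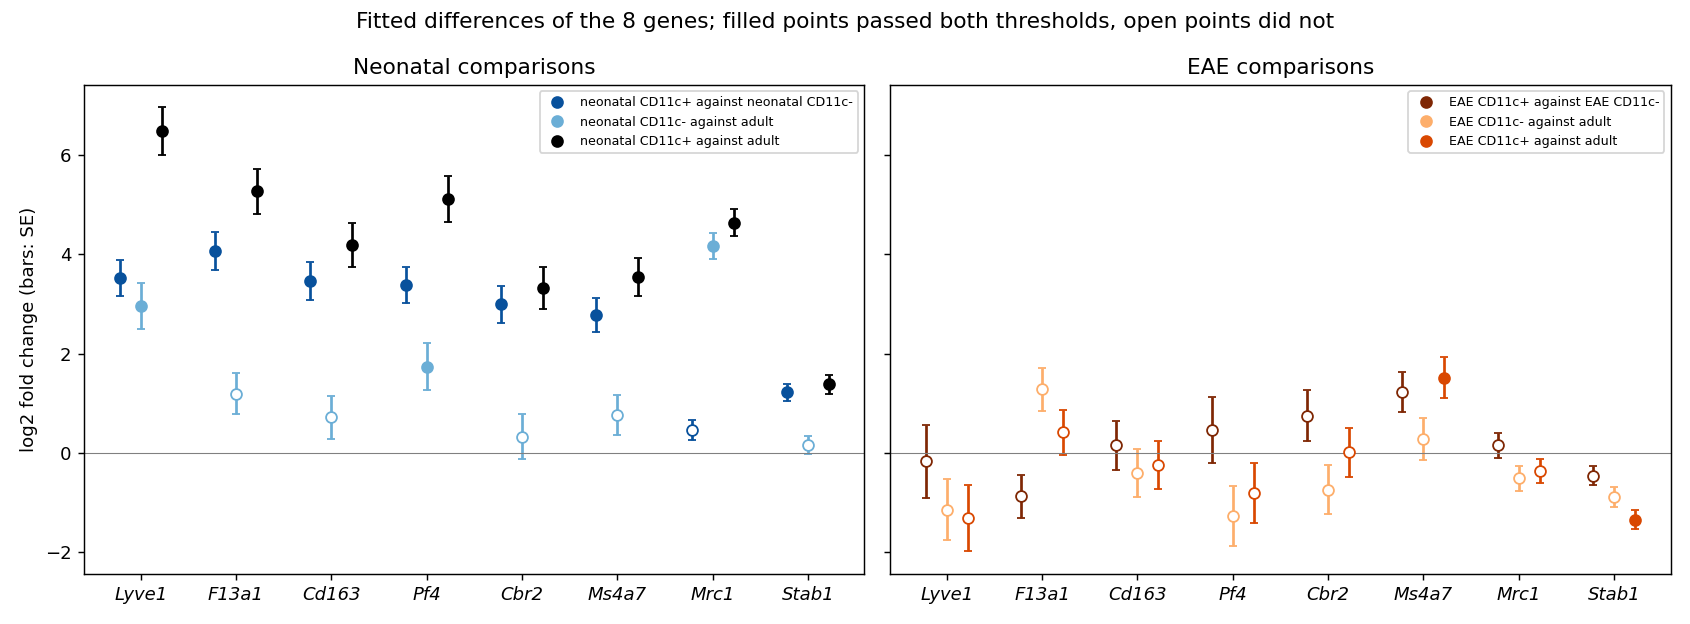
Fitted log2 fold change of the 8 genes with its SE (bars) in 3 neonatal comparisons (left) and 3 EAE comparisons (right); filled points passed both thresholds and open points did not. Mrc1 is open at 0.47 between the neonatal subsets but filled at 4.16 and 4.63 against adult cells, and in the EAE comparisons Ms4a7 and Stab1 alone are filled, both in EAE CD11c+ against adult.

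In EAE the markers stayed near or below adult levels, with the exceptions of F13a1 and Ms4a7. Of the 8 genes, 0 were called in EAE CD11c- against adult cells by edgeR's quasi-likelihood test, where 7.83% of all genes were called higher and 2.01% lower. At an unadjusted p under 0.05 in that test there were 2, F13a1 and Stab1. The share of all genes under that level was not counted. F13a1 was 18.5, 27 and 19.3 CPM in libraries 4 to 6, above all 3 adult libraries (5.26 to 13.4 CPM), at a log2 difference of 1.29 ± 0.43 (adjusted p = 0.037). It was called by DESeq2 (adjusted p = 0.008) and by edgeR's likelihood ratio test (0.0083). The quasi-likelihood test called it with no filter on low counts (0.0013), with only the 2 groups in the fit (0.0032) and at a threshold of 0.05. This call thus depended on the tool, the filter, the threshold and the libraries in the fit. Stab1 was 822, 686 and 905 CPM, below all adult libraries, but its log2 difference of -0.89 ± 0.20 (adjusted p = 0.0025) was under the fold required. Mrc1 was 36.8, 38.1 and 37.8 CPM, at the lower end of the adult range (log2 difference -0.51 ± 0.25, adjusted p = 0.15). The 9 monocyte genes summed to 1103 to 1282 CPM in EAE CD11c- libraries and 87.4 to 168 CPM in adult libraries. The 9 neutrophil genes summed to 6765 to 12970 CPM and 908 to 1834 CPM. In EAE CD11c+ libraries the sums were 1031 to 1562 CPM and 42.65 to 72.8 CPM. The part of these lists in the EAE values of the 8 genes was not tested.

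EAE CD11c+ cells overlapped their neonatal counterparts in Itgax RNA, at 325 to 453 against 285 to 428 CPM. Lyve1 was 0.881, 1.15 and 0.692 CPM in libraries 1 to 3, on 5 to 9 reads, and 0.757, 1.15 and 1.3 CPM in EAE CD11c- libraries 4 to 6. Pf4 was 0.529, 1.78 and 0.83 CPM, on 3 to 14 reads, the value in library 1 being at the floor. Against adult cells, 1 gene was called higher (background 9.80%) and 1 lower (5.32%). Ms4a7 rose, at 9.34, 7.13 and 6.64 CPM against 1.1, 3.4 and 2.97 CPM (log2 difference 1.52 ± 0.41, adjusted p = 0.0077). That call was lost in each of the 6 fits that left out a library of the 2 groups, with adjusted p between 0.011 and 0.046, although the direction held in all of them. Stab1 fell, at 472, 674 and 616 CPM (log2 difference -1.34 ± 0.20, adjusted p = 3.4e-05), and the call held in all 6. Mrc1 was 49.2, 38.2 and 38.3 CPM and did not pass (log2 difference -0.36 ± 0.25, adjusted p = 0.28). Between EAE CD11c+ and CD11c- cells, where 1.00% of genes were called higher and 1.91% lower, edgeR's quasi-likelihood test called 0 of the 8 genes, as did each other tool run. Ms4a7 (log2 1.23 ± 0.40) and Stab1 (-0.45 ± 0.20) were the 2 under an unadjusted p of 0.05 in that quasi-likelihood test, again without a count over all genes.

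**Figure D4:**
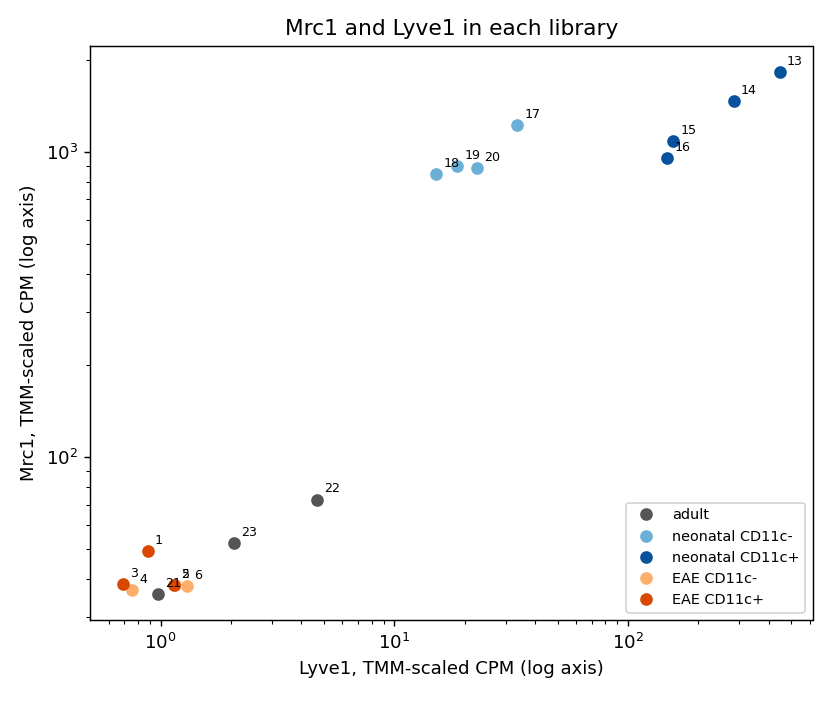
Mrc1 against Lyve1 in each of the 17 libraries, both in TMM-scaled CPM on log axes; points are libraries coloured by group and labelled with their numbers. The neonatal CD11c- libraries lie beside the CD11c+ libraries in Mrc1 (848 to 1225 against 959 to 1831 CPM) but at least 4-fold to their left in Lyve1 (15.1 to 33.6 against 147 to 446 CPM), and the EAE libraries lie at the lower left.

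With both subsets averaged, all 8 genes were called higher in neonatal than in EAE cells, against 6.32% of all genes called higher and 8.26% lower. The log2 difference was 5.94 ± 0.38 for Lyve1, 4.83 ± 0.19 for Mrc1, 4.46 ± 0.37 for Pf4, 2.78 ± 0.32 for Cd163, 2.38 ± 0.29 for F13a1, 2.19 ± 0.33 for Cbr2, 1.89 ± 0.14 for Stab1 and 1.26 ± 0.27 for Ms4a7. Within the CD11c- cells alone, F13a1 had a mean of 20.3 ± 4.71 CPM in neonates (n = 4) and 21.6 ± 4.7 CPM in EAE (n = 3), and these 2 groups were not tested against each other. Whether the CD11c effect itself differed between neonates and EAE was tested as an interaction, in which 1.29% of all genes were called higher and 0.0919% lower. F13a1 (log2 4.94 ± 0.57, adjusted p = 7.5e-05), Stab1 (1.67 ± 0.26, 0.0011) and Cd163 (3.31 ± 0.63, 0.0057) were called. The Cd163 call was lost in 10 of the 14 fits that left out a library, with adjusted p up to 0.02. Lyve1 had a larger estimate with a wider error (3.69 ± 0.98, adjusted p = 0.042), its EAE levels resting on 5 to 12 reads, and Pf4 (2.92 ± 1.01, 0.11), Cbr2 (2.24 ± 0.71, 0.086) and Ms4a7 (1.55 ± 0.55, 0.12) did not pass. Lyve1 did pass with DESeq2 (adjusted p = 0.00028), edgeR's likelihood ratio test (1.7e-05), no filter on low counts (0.00038) and a threshold of 0.05, and Pf4 passed with the likelihood ratio test (0.0051). For Mrc1 the difference was 0.31 ± 0.32 (adjusted p = 0.62).

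A further 36 genes that border-associated macrophages are known for were followed beside the members. Of the 34 that were tested, 20 were called higher and 0 lower in neonatal CD11c+ against CD11c- cells, with a median log2 difference of 1.41 against -0.01 over all tested genes. Cd209f, Cd209g and Cd209b, all called, passed the expression filter only through the CD11c+ libraries, so the count over the genes that did not depend on them was 17 of 31. The smallest adjusted p-values belonged to the folate receptor gene Folr2 (log2 2.91 ± 0.22), the ficolin gene Fcna (3.12 ± 0.31), the fatty acid translocase Cd36 (3.59 ± 0.37), the sialoadhesin Siglec1 (2.27 ± 0.24), the lectin Clec10a (3.71 ± 0.42) and the ectoenzyme Cd38 (3.67 ± 0.42). The order of libraries 13, 14 and then 15 and 16 was found in 27 of the 34, and in 14 together with a ratio of at least 2.5, against 10.5% and 0.404% of all genes of at least 10 CPM, a level that not every gene of the list reached. Without the 3 Cd209 genes the counts were 24 and 11 of 31. This list, too, was chosen with earlier results of these data known. Fcna, at 104, 65.7, 32.1 and 36.6 CPM, and Clec10a, at 48.4, 34.2, 15.9 and 21.3 CPM, tracked the 6 members. Genes of this list that were high in both neonatal subsets varied less. Gas6, a bridging ligand for phagocytic receptors, was 1228, 1155, 1176 and 1069 CPM in CD11c+ libraries and 819 to 1220 CPM in the CD11c- group, and Igfbp4 was 392, 320, 283 and 278 CPM and 370 to 401 CPM. Apoe was 13050 to 14980 CPM in the CD11c+ libraries, in no such order.

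Between EAE and adult cells this second list parted from the 8 members. In EAE CD11c- cells 12 of the 34 genes were called higher and 2 lower, where 7.83% and 2.01% of all genes were called. In EAE CD11c+ cells 13 were called higher and 3 lower, where the shares of all genes were 9.80% and 5.32%. Cd36 was 172 to 409 CPM in EAE CD11c+ and 79 to 173 CPM in EAE CD11c- cells against 2.08 to 3.51 CPM in adults, and Siglec1 was 78.4 to 111 and 43.2 to 59 CPM against 8.69 to 15.4 CPM. Folr2, by contrast, was 1.69 to 4.58 CPM over the 6 EAE libraries and 78.1 to 139 CPM in neonatal CD11c+ cells, and Fcna was at most 0.671 CPM in EAE. The 5 class II antigen presentation genes that mark a further set of border macrophages summed to 4581 to 5811 CPM in EAE CD11c+ cells and 63.6 to 117 CPM in neonatal CD11c+ cells, where their order over libraries 13 to 16 (73.1, 64.7, 63.6 and 117 CPM) was not that of the members.

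The genes most like each pattern over the 17 libraries differed. Likeness was the mean absolute difference of log2 CPM after centring each gene, among 9532 genes of at least 10 CPM in some group. Nearest to Mrc1 were Pygm (0.459), the muscle glycogen phosphorylase, Ptk7 (0.482), Igf2bp3 (0.585), Baiap2l2 (0.588) and Lpl (0.616), a lipoprotein lipase, none of them on the border macrophage list. They were high in both neonatal subsets, Igf2bp3 for instance at a mean of 50 CPM in CD11c- and 59 CPM in CD11c+ cells against 0.917 CPM in adults. Nearest to the mean of the other 7 members were Gprc5c (0.411), Tnfsf18 (0.436), Bmp2 (0.442), Cd209f (0.447) and Folr2 (0.481), the last pair being border macrophage genes. All of these but Folr2 reached 10 CPM only in neonatal CD11c+ cells, and Cd209f passed the expression filter only through those libraries. Part of their likeness to a pattern high in that group was thus built in. Among the members, Pf4 (0.958) and Lyve1 (0.976) lay nearest to Mrc1 and Stab1 and Ms4a7 (1.59 each) farthest. The 5 genes nearest to Mrc1 were picked as the nearest of 9532, with the members left out of that ranking. That no member was as near as they were therefore does not set the members apart.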

How the data were processed

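Per the labels and the study's methods, RNA of pooled, sorted cells was made into TruSeq libraries and sequenced as single reads, and the authors aligned them with STAR to GRCm38 and counted reads per Ensembl gene with HTSeq. The deposited values are raw counts per gene, 1 table per library, with no normalisation. STAR 2.3.11, HTSeq 0.5.4 and edgeR 3.12.0 stand in the submitters' processing notes. Strand and multi-mapping settings are not given in the sources used here, and PCR duplicates cannot be told from independent molecules, so counting intervals cover counting error only.

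Here the counts were fitted in edgeR 4.0.16 (R 4.3.3; quasi-likelihood, TMM factors, prior count 2) with all 17 libraries and 5 groups in 1 model, after keeping genes of at least 1 CPM in at least 3 libraries. Called genes had an adjusted p of at most 0.01 with an absolute log2 fold change no smaller than 1. SEs were the log2 fold change over the square root of F. The study describes its pools as coming from several immunisations and several sorts, but the labels do not say which library came from which, so p-values measure the spread between these libraries. No pair of libraries in a group agreed within sampling noise. The fit was tested on simulated data. Reported genes were the 8 members; up to 6 further border macrophage genes by adjusted p between the neonatal subsets and up to 3 in each other comparison; the 5 genes nearest to each pattern; and genes of other lists where a result turned on them. Members and lists were chosen with earlier results of these data known. Alternatives included DESeq2 1.42.0, limma 3.58.1, other filters, thresholds and scalings, and each library left out.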

Additional observations from a re-analysis of the deposited data

Results flagged for a closer look

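Mrc1 in neonatal CD11c- library 17 (1225 CPM) lay far from libraries 18 to 20 (848 to 902 CPM). Library 17 also had the 5.1% mitochondrial share. Among the further border macrophage genes, the same check picked Clec12a in neonatal CD11c- library 19 (18.2 CPM against 5.07 to 6.65 CPM), Apoe in neonatal CD11c+ library 14 (13050 CPM against 14910 to 14980 CPM) and Ccl8 in neonatal CD11c- library 20 (0.186 CPM, from 1 read, against 0 in the others). These are 4 of 46 groups of 4 libraries checked over 23 genes, and chance alone picks about 1 in 20.

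The CD11c effect differed between neonates and EAE, by the interaction term of the edgeR quasi-likelihood fit, for F13a1 (log2 4.94 ± 0.57, adjusted p = 7.5e-05), Cd163 (3.31 ± 0.63, 0.0057) and Stab1 (1.67 ± 0.26, 0.0011). For Cd163 the call was lost in 10 of the 14 fits that left out a library. F13a1 was higher in CD11c+ than in CD11c- cells in neonates (345 and 20.3 CPM on average), whereas in EAE the CD11c+ libraries (11.1 to 12.7 CPM) lay below the CD11c- libraries (18.5 to 27 CPM), a difference that by itself did not pass (adjusted p = 0.28). Stab1 followed the same pattern, at 3884 and 1666 CPM in neonates and 587 and 804 CPM in EAE. Of the further genes, the term was called for Folr2 (2.48 ± 0.42), Wfdc17 (3.09 ± 0.58) and Slc40a1 (1.91 ± 0.25). Wfdc17 was at 4.41 to 5.98 CPM in all 6 EAE libraries and at 0 to 0.372 CPM in neonatal CD11c- cells, and Slc40a1, the iron exporter gene, fell by 1.27 on the log2 scale in EAE CD11c+ against CD11c- cells.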

How the results depend on the processing

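No paired analysis was possible because no replicate number was shared between groups; CD11c+ and CD11c- libraries may stem from the same sorts, but the labels do not link them. Of 1556 values recomputed under the alternatives, 1482 were taken as unchanged. For a tested gene this meant the same direction and the same side of the thresholds. A count of called members, or a ratio of highest to lowest library, could change by up to 1.5-fold. A mean level could move by up to the SD between libraries. A count could thus pass as unchanged while a gene lost its call, as Cd163 did in the interaction. The ratios or levels that moved beyond these limits numbered 5. They were the ratios of highest to lowest library of Lyve1, F13a1, Pf4, Cbr2 and Ms4a7 when neonatal CD11c+ library 13 was left out. The 7 calls between the neonatal subsets and the 8 against adults in neonatal CD11c+ cells held with every library left out in turn and with every tool; at a log2 fold change of 1.5 Stab1 was lost from both. In EAE CD11c- against adult, 1 member (F13a1) in place of 0 was called with DESeq2, the likelihood ratio test, no filter on low counts, an adjusted p of 0.05 and only the groups compared. In EAE CD11c+ against adult, 1 in place of 2 was called with limma voom, at a log2 fold change of 1.5, without EAE CD11c+ library 1 and neonatal CD11c- library 17 together, and in every fit without a single library (1 to 1). The interaction gave 5 in place of 3 with the likelihood ratio test. Changes of sign occurred in values that had not passed the test. Cbr2 in EAE CD11c+ against adult (0.01) was -0.0006285 with DESeq2 size factors and ran from -0.32 to 0.60 with a library left out. Cd163 in EAE CD11c+ against CD11c- (0.15) was -0.007227 with voom, -0.0692 without libraries 1 and 17, and ran from -0.0671 to 0.27. Cd163 against adult ran from -0.79 to 0.15 in EAE CD11c- and from -0.65 to 0.30 in EAE CD11c+, Ms4a7 in EAE CD11c- against adult from -0.0463 to 0.56 and Pf4 between the EAE subsets from -0.0507 to 0.67. The cause was not tested. Over all genes, the calls fell from 488 to 302 between the neonatal subsets, from 1711 to 1041, 2385 to 1462 and 1975 to 1217 in neonatal CD11c-, neonatal CD11c+ and EAE CD11c+ against adult and from 1904 to 1150 between neonatal and EAE at a log2 fold change of 1.5. Between the EAE subsets they were 381, 253 with only those groups and 233 without library 6. The interaction gave 181, 305 with DESeq2, 325 with the likelihood ratio test, 294 without a filter, 323 at an adjusted p of 0.05 and 94 to 119 without library 6, 13, 20, 14 or 3. Depth limits the EAE values of Lyve1 and Pf4, which rest on 3 to 14 reads.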
